A study of Mus musculus with 22 samples.

Results

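A set of 10 genes of lipoprotein metabolism was followed in testes of mice lacking MLX: the apolipoprotein genes *Apoe*, *Apoc1*, *Apod*, *Apoa1* and *Apob*, the lipoprotein lipase gene *Lpl*, the phospholipid transfer protein gene *Pltp*, the sterol transporter genes *Abca1* and *Abcg1*, and the HDL receptor gene *Scarb1*. They were taken by symbol from the deposited table of RNA counts, where all 10 have a row among 17931 gene symbols, and 8 of them had enough counts to be among the 14640 genes tested. Of the 10, *Apoa1* and *Apob* were too low to test, and *Apod* passed the filter on low counts through the MLX KO libraries alone.

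The study asked what the loss of MLX, a MAX-like basic helix-loop-helix leucine zipper transcription factor, does to the male germline and its tissue. RNA was sequenced from whole testes of 3 wild-type (WT) males, all proven fertile breeders, and from 3 males with a constitutive deletion of *Mlx* (MLX KO), which were their age-matched littermates. All 6 males were aged 7 months and untreated. The deleted allele lacks exons 3 to 6 of *Mlx*, which encode the region for dimerization and DNA binding. It was targeted in 129S4 embryonic stem cells and converted to a total deletion with Meox2-Cre, which was then crossed out, so the deletion is carried by every cell of the animal and not by 1 cell type of the testis. The 6 libraries held 16674678 to 19742726 counts, and read counts are given below as counts per 1000000 of the library (CPM) with the SD over 3 libraries. WT1 and KO1 stood apart from the other libraries on the second principal component, which held 10.2% of the variance, while the first (76.1%) separated the genotypes. *Mlx* itself (chr11:101086707-101092207, plus strand) was counted 128, 96 and 98 times in WT libraries against 94, 109 and 102 times in MLX KO libraries (log2 fold change -0.18, adjusted p = 0.326). The table gives 1 count for the gene, to which the exons left in place by the deletion can contribute, so it does not check the labels.

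Apolipoproteins are the protein coat of lipoprotein particles, and they decide which lipases, transfer proteins and receptors a particle meets. ABCA1 and ABCG1 carry cholesterol and phospholipid out of the cell onto apolipoproteins and HDL, and SR-BI, the product of *Scarb1*, moves cholesteryl ester from HDL into the cell. In the testis this traffic serves Leydig cells, which make testosterone from cholesterol, and Sertoli cells, which take up and recycle the lipid of residual bodies and dying germ cells. Several of these genes, *Abca1*, *Abcg1*, *Apoe*, *Apoc1*, *Pltp* and *Lpl* among them, are known targets of the oxysterol receptors LXR in other cells, and macrophages are a known source of *Apoe* and *Apoc1*.

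All 8 tested genes were higher in MLX KO testes at an adjusted p under 0.05 (edgeR's quasi-likelihood test, Benjamini-Hochberg adjustment over all genes tested). That count stands against a background in which 45.4% of all tested genes were called, 24.8% as higher and 20.6% as lower. Counts scaled by library size alone, without TMM factors, gave 5343 genes higher and 1268 lower in place of 3634 and 3015, and moved the log2 fold change of the median gene up by 0.14. Every tested member was still higher under that scaling. The log2 fold changes of the 8 had a median of 1.20, against 0.03 for all genes tested, and ran from 0.19 for *Scarb1* to 2.48 for *Apoc1*. *Apod* entered the test through its MLX KO libraries alone, so its call as higher adds no support of its own. A filter of 1 CPM in 3 libraries left *Apod* out, and the median of the members was then 1.06, against 0.02 for all genes tested. The call held in each alternative for *Apoe*, *Apoc1*, *Pltp* and *Abca1*. *Apod* was called wherever it was tested, but the stricter filter removed it, so it is not counted with them. For *Lpl*, *Abcg1* and *Scarb1* the call was lost in 6 of 15, as given with each gene.

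**Figure D1:**
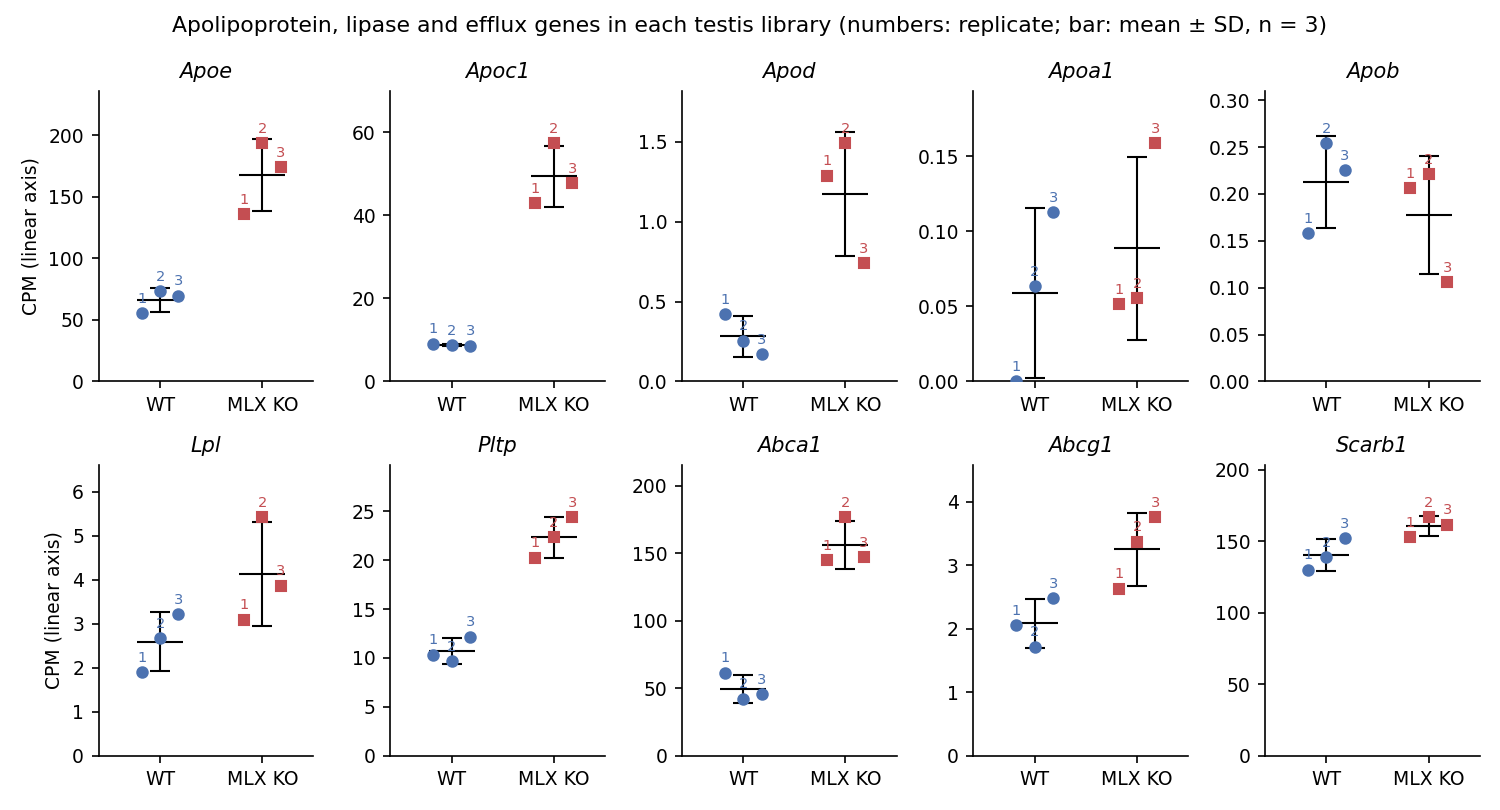
CPM of the 10 genes (linear axes from 0) in the 3 WT libraries (circles) and the 3 MLX KO libraries (squares), each point numbered by its replicate, with bars at the mean ± SD. *Apoe*, *Apoc1*, *Apod*, *Pltp*, *Abca1*, *Abcg1* and *Scarb1* show no overlap between genotypes, *Lpl* does, and *Apoa1* and *Apob* stay below 0.3 CPM in every library. The share of all tested genes without overlap was not counted, so the lack of overlap is not read as particular to these genes.

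*Apoe* encodes the ligand by which remnant particles bind the LDL receptor family, and it accepts cholesterol released through ABCA1. It lies on the minus strand of chromosome 7 (chr7:19696244-19701310, mm10, RefSeq annotation, as for the genes below). Its WT libraries held 55.4, 73.4 and 69.6 CPM, and its MLX KO libraries 136, 194 and 174 CPM. The lowest MLX KO library was thus above the highest WT library. The mean was 66.1 ± 9.50 CPM in WT and 168 ± 29.4 CPM in MLX KO (SD, n = 3 each), a log2 fold change of 1.35 with a standard error of 0.13 (adjusted p = 2.22e-05). Between libraries of the same number, MLX KO over WT was 2.45, 2.64 and 2.50, the most even ratio of the genes that rose by more than 2-fold.

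*Apoc1*, whose small exchangeable protein inhibits lipoprotein lipase and slows the uptake of remnants, sits next to *Apoe* (chr7:19689480-19692659, minus strand), with a gap of 3584 bases between the annotated genes. It read 9.07, 8.78 and 8.57 CPM in the WT libraries and 43.0, 57.4 and 47.7 CPM in the MLX KO libraries. The WT values hardly differed among themselves, with a coefficient of variation of 2.84%, and the groups were far apart. *Apoc1* rose the most of the 8, from 8.80 ± 0.250 to 49.4 ± 7.37 CPM, a log2 fold change of 2.48 ± 0.11 (SE; adjusted p = 2.23e-07), and 0.27% of all tested genes had a larger one. Its ratios between libraries of the same number were 4.74, 6.54 and 5.57.

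The rise of *Apoc1* was set against that of its neighbour *Apoe* within each library. For each read of *Apoe*, a WT library had 0.164, 0.120 and 0.123 reads of *Apoc1*, and an MLX KO library had 0.316, 0.296 and 0.274. The ratio was higher in every MLX KO library than in any WT library, and differed by 1.14 on the log2 scale. The exact two-sided permutation test gave p = 0.10, the smallest that 3 against 3 libraries allow, and p = 0.133 after Benjamini-Hochberg adjustment over the 4 gene pairs compared, which were chosen after the values had been seen.

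Smaller differences were read in the genes around the pair. *Tomm40*, an import channel of the mitochondrial outer membrane whose annotated end is 2 bases from *Apoe*, was at 27.7 ± 1.78 CPM in WT and 31.6 ± 1.36 CPM in MLX KO (log2 fold change 0.19, adjusted p = 0.0495). That call was lost in 9 of 15 alternatives, with an adjusted p of 0.0596 without the filter on low counts, 0.0816 with DESeq2's size factors, 0.214 in DESeq2, 0.351 in DESeq2 with the replicate block, 0.117 without replicate 1 of both genotypes, and 0.181, 0.118, 0.147 and 0.0671 without WT1, WT3, KO2 and KO3. *Relb*, an NF-κB subunit, rose by 0.85 on the log2 scale (adjusted p = 0.000718) and *Bcam*, a laminin receptor, by 0.63 (adjusted p = 0.0167), and the latter lost its call without WT1 (0.0687) and without KO2 (0.0700). *Clptm1* was at 128 ± 5.17 CPM in WT and 127 ± 1.95 CPM in MLX KO and was not called, except as higher (0.13, adjusted p = 0.0266) when scaling by library size alone. The remaining apolipoproteins of this cluster were hardly read: *Apoc2*, the cofactor of lipoprotein lipase, had 0 to 4 counts a library and *Apoc4* 0 to 1, too few for a test. Of the tested genes at this locus, *Apoe* and *Apoc1* thus had the largest log2 fold changes.

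*Apod* encodes a lipocalin that binds small lipids and is no relative of *Apoe*, *Apoc1*, *Apoa1* or *Apob* (chr16:31296192-31314808, minus strand). It was read 8, 4 and 3 times in the WT libraries and 25, 27 and 14 times in the MLX KO libraries, which is 0.282 ± 0.129 and 1.17 ± 0.389 CPM. The groups did not overlap, at a level where a few reads decide the size of the ratio. The log2 fold change was 2.01 with a standard error of 0.42 (adjusted p = 0.00283), and ran from 1.74 to 2.44 over the alternatives. None of the WT libraries and all 3 MLX KO libraries were above the filter's minimum, and with the filter removed the adjusted p was 0.00249.

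*Apoa1* and *Apob*, the structural proteins of HDL and of the LDL and chylomicron family, are made mainly by liver and intestine. *Apoa1* (chr9:46228630-46230469, plus strand) was counted 0, 1 and 2 times in the WT libraries and 1, 1 and 3 times in the MLX KO libraries, no library above the floor of 3 counts taken as the limit of detection. *Apob* (chr12:7977629-8016839, plus strand) was counted 3, 4 and 4 times in WT libraries against 4, 4 and 2 times in MLX KO libraries. No difference between genotypes was detectable at this depth for either gene. Hepatocyte markers were scarce too, with 0 to 4 counts a library for *Alb* and a sum over all 7 markers of 1.52 to 2.06 CPM in WT and 1.86 to 2.43 CPM in MLX KO. Around *Apoa1*, *Apoa4* had 0 to 3 counts a library. Of the 6 tested neighbours, *Sik3* and *Zpr1* were lower by 0.17 and 0.20 on the log2 scale (adjusted p = 0.0360 and 0.0297), *Tagln*, a smooth muscle gene, was higher by 0.62 (adjusted p = 0.00540), and *Bud13*, *Pafah1b2* and *Pcsk7* lay between -0.07 and 0.05. The calls of *Sik3* and *Zpr1* were lost when scaling by library size alone (adjusted p = 0.696 and 0.422) and without WT1 (0.0534 and 0.0775), KO2 (0.153 and 0.119) or KO3 (0.0886 and 0.137). That of *Sik3* was also lost without WT3 (0.154) and in DESeq2 with the replicate block (0.0661), and that of *Zpr1* without WT2 (0.0944).

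*Lpl*, the enzyme that hydrolyses triglyceride in circulating particles, was low (chr8:68880555-68906932, plus strand). Its libraries held 1.90, 2.67 and 3.21 CPM in WT and 3.10, 5.42 and 3.86 CPM in MLX KO. The lowest MLX KO value fell below the highest WT value, though MLX KO was higher than WT for each number, with ratios of 1.63, 2.03 and 1.20. The log2 fold change was 0.67 with a standard error of 0.25 (adjusted p = 0.0459). The call was lost in DESeq2 (adjusted p = 0.0764), in DESeq2 with the replicate block (0.155), and without WT1 (0.165), WT2 (0.0955), KO2 (0.197) or KO3 (0.0716).

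Adipocytes and endothelium bear on *Lpl*, since adipocytes make the enzyme and endothelium holds it in place. The 7 adipocyte markers summed to 8.78 to 14.2 CPM in WT and 8.41 to 12.7 CPM in MLX KO, and overlapped. Of the 6 tested, 1 was higher, 1 lower and 4 not called, beside 24.8% higher and 20.6% lower over all genes tested. Their median log2 fold change was 0.40, and ran from -0.11 without KO3 to 0.88 without KO1. *Adipoq*, the highest of them in CPM, was lower by 0.72 on the log2 scale (adjusted p = 0.00139). *Plin1*, a lipid droplet coat protein, was higher by 0.96 (adjusted p = 0.0113), a call lost in DESeq2 with the replicate block (0.0766) and without WT2 (0.0509). *Gpihbp1*, the endothelial anchor of the enzyme, had 1 to 6 counts a library and was not tested.

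Of the genes that mature, inhibit or parallel lipoprotein lipase, 4 of the 7 tested were higher and 3 were lower, beside 24.8% and 20.6% of all genes tested. Their median log2 fold change was 0.16. *Lipa*, the lysosomal acid lipase, went from 6.04 ± 0.370 to 14.6 ± 2.72 CPM (log2 fold change 1.28, adjusted p = 6.99e-05), and *Lipg*, the endothelial lipase, from 16.9 ± 3.53 to 46.7 ± 19.0 CPM (1.47, adjusted p = 0.00131). *Angptl4*, an inhibitor of lipoprotein lipase, rose by 1.04 (adjusted p = 0.00451). *Lipe*, the hormone-sensitive lipase, had the highest CPM of them and fell by 0.34 on the log2 scale, from 340 ± 9.97 to 269 ± 23.2 CPM (adjusted p = 0.00131). The lipase maturation factors *Lmf1* and *Lmf2* were lower, with log2 fold changes of -0.23 and -0.26 (adjusted p = 0.00750 and 0.00484). *Sel1l*, the remaining tested gene, was higher by 0.16 (adjusted p = 0.0303). Values of these genes in the alternatives are not given here. The list thus moved in both directions, with *Lpl* in the direction of *Lipa* and *Lipg* and opposite to *Lmf1*, *Lmf2* and *Lipe*.

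*Pltp* encodes the protein that passes phospholipid between particles and enlarges HDL (chr2:164839518-164857708, minus strand). It read 10.3, 9.67 and 12.2 CPM in WT and 20.3, 22.3 and 24.4 CPM in MLX KO, with a wide gap between the groups. The log2 fold change was 1.06 with a standard error of 0.11 (adjusted p = 3.52e-05), and the ratios between libraries of the same number were 1.96, 2.31 and 2.00. Of its 2562 exon bases, 495 overlap exons of *Ctsa*, the gene of a lysosomal carboxypeptidase on the opposite strand. *Ctsa* rose by 0.77 (adjusted p = 0.000132), and as the strandedness of the libraries is not given in the sources used here, the reads of the shared stretch cannot be told apart.

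*Abca1* encodes the transporter that loads cholesterol and phospholipid onto lipid-poor apolipoproteins, the first step of HDL assembly (chr4:53030789-53159988, minus strand). It held 61.6, 42.2 and 45.4 CPM in WT and 145, 177 and 147 CPM in MLX KO, and the lowest MLX KO library stood 2.35-fold above the highest WT library. The mean went from 49.7 ± 10.4 to 156 ± 17.7 CPM, a log2 fold change of 1.65 ± 0.12 (SE; adjusted p = 5.74e-06). KO1 over WT1 gave the smallest ratio at 2.35, against 4.19 and 3.24 for the other two, and WT1 was the highest WT library for this gene.

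*Abcg1*, which passes cholesterol to HDL particles that already carry lipid (chr17:31057694-31117984, plus strand), stood far below *Abca1* per kilobase of exon, at 0.286 against 4.80 CPM per kb in WT. Its values were 2.06, 1.72 and 2.48 CPM in WT and 2.63, 3.37 and 3.76 CPM in MLX KO, separate by a small margin. The log2 fold change was 0.63 with a standard error of 0.21 (adjusted p = 0.0307). That call was lost in DESeq2 (adjusted p = 0.105), in DESeq2 with the replicate block (0.227), and without WT1 (0.0775), WT2 (0.111), KO2 (0.0808) or KO3 (0.119). Per read of *Abcg1*, WT libraries had 18.3 to 30.0 reads of *Abca1* and MLX KO libraries 39.2 to 55.1, a log2 difference of 1.02 (exact permutation p = 0.10, adjusted 0.133). This pair too was chosen after the values had been seen, and 0.10 is the smallest p that 3 against 3 libraries allow.

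*Scarb1*, the gene of the HDL receptor SR-BI (chr5:125277087-125341094, minus strand), moved least. WT libraries held 130, 139 and 152 CPM and MLX KO libraries 153, 167 and 162 CPM, so that WT3 and KO1 nearly touched. The log2 fold change was 0.19 ± 0.06 (SE; adjusted p = 0.0252), and 34.6% of all tested genes had a larger one. Its call was lost in DESeq2 (adjusted p = 0.0526), in DESeq2 with the replicate block (0.0842), and without WT1 (0.116), WT2 (0.0832), KO2 (0.0801) or KO3 (0.0567). Set against *Scarb1*, *Abca1* was higher in each MLX KO library than in any WT library, with 0.299 to 0.473 reads of *Abca1* per read of *Scarb1* in WT and 0.910 to 1.06 in MLX KO, a log2 difference of 1.47 (exact permutation p = 0.10, adjusted 0.133). The reads of *Apoe* per read of *Abca1* overlapped between genotypes, at 0.898 to 1.74 in WT and 0.937 to 1.18 in MLX KO (exact permutation p = 0.40, adjusted 0.40). Both pairs were chosen after the values had been seen, and 0.10 is the smallest p that 3 against 3 libraries allow. The ratio of *Abca1* to *Scarb1* thus restates their unlike fold changes.

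**Figure D2:**
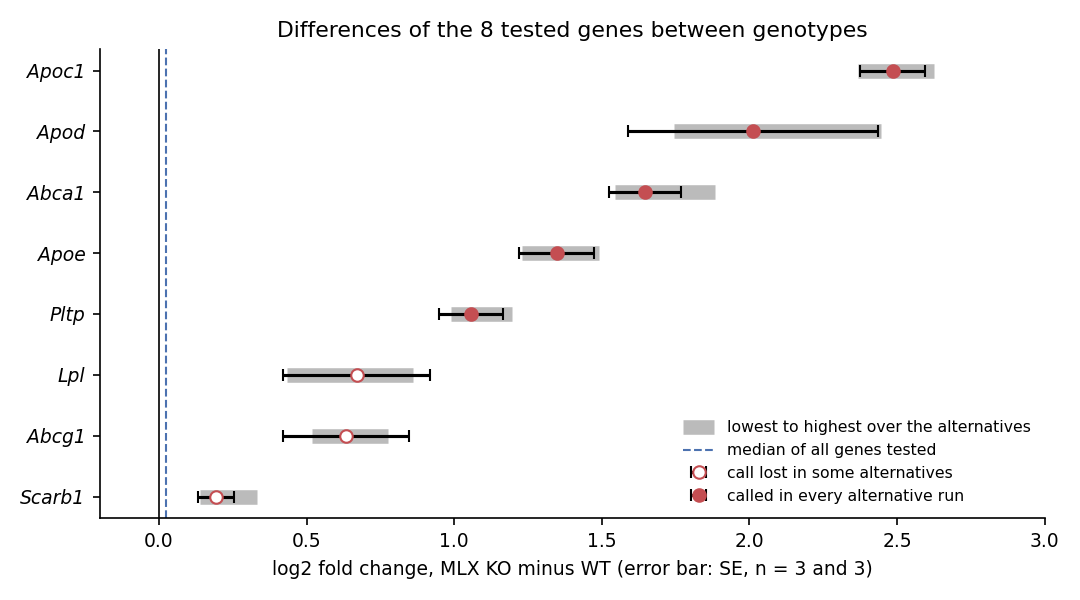
Log2 fold change of the 8 tested genes, MLX KO minus WT (points; error bars are the SE, n = 3 and 3), with grey bands from the lowest to the highest value over the alternatives and a dashed line at the median of all genes tested. Open points mark *Lpl*, *Abcg1* and *Scarb1*, whose call was lost in some alternatives, and *Apoc1* lies highest at 2.48.

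Promoter sequence was at hand in RefSeq (GRCm38.p6) for 6 of the 10 genes, as 250 bases before and 50 after the start, and *Apoc1*, *Scarb1*, *Lpl* and *Abcg1* had no entry. Shown are *Abca1*, *Apoe* and *Pltp*, whose calls held in each alternative, and *Apod*, which was called wherever it was tested. This sets the start regions of genes that moved together side by side. *Apoe* has 3 entries, all inside its annotated span and not at its upstream end. The one furthest upstream of the 3 is given. Capitals mark CACGTG, the E-box that MLX and its partners recognise, and the sequence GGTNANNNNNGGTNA on either strand, a relaxed form of the repeat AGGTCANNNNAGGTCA that LXR binds.
Abca1, chr4:53159846-53160145, minus strand: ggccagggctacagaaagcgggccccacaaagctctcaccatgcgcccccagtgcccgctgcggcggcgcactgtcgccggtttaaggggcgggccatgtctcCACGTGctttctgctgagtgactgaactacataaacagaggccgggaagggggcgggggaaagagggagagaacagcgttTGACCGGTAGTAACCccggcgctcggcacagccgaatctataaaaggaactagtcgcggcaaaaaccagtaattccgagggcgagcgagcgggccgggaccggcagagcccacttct
Apoe, chr7:19699139-19699438, minus strand: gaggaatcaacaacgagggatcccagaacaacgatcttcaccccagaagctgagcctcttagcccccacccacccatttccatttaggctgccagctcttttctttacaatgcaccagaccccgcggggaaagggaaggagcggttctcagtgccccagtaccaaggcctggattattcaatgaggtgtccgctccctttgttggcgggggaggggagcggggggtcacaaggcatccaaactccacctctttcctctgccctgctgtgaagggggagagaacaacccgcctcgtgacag
Pltp, chr2:164857659-164857958, minus strand: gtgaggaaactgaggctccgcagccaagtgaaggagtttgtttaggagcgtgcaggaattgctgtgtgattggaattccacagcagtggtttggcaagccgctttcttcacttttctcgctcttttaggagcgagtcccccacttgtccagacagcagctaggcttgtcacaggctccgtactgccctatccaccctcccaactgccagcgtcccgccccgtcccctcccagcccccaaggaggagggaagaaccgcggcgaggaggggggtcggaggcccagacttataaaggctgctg
Apod, chr16:31314759-31315058, minus strand: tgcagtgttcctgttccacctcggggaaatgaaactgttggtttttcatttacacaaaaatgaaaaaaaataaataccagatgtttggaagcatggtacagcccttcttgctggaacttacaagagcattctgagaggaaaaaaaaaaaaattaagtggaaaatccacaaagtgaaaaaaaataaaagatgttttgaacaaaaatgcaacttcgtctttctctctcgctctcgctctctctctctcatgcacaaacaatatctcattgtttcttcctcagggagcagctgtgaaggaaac
Only the *Abca1* entry holds either motif among the 8 promoter entries of the 6 genes. Its CACGTG begins 147 bases before the start, and 7.15% of 32851 mouse promoters of this length hold that motif. Its relaxed repeat begins 67 bases before the start, on the strand opposite to the one printed, and 0.718% of promoters hold such a repeat, a form that was chosen after the sequence had been seen. The full repeat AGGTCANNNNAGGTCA was in none of the 8 entries and in 0.0152% of promoters, and its single unit AGGTCA was in none of the 8 and in 16.3% of promoters. TATAAA was found in *Abca1*, *Pltp*, *Apob* and the second *Apoe* entry, and in 13.6% of promoters. These are matches of letters and no evidence of binding.

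Levels of different genes were set against each other per kilobase of exon, as CPM per kb. In WT the order was *Apoe* (30.9 ± 4.44), *Scarb1* (16.5 ± 1.29), *Apoc1* (11.8 ± 0.336), *Abca1* (4.80 ± 1.00) and *Pltp* (4.19 ± 0.508), with *Abcg1*, *Lpl*, *Apod*, *Apoa1* and *Apob* all below 0.3 CPM per kb. *Abca1* and *Pltp* overlapped in their WT values, as did *Abcg1* and *Lpl*, so neither pair has a firm order. Divided by the longest transcript instead, *Apoe* (47.0 ± 6.75) and *Scarb1* (45.4 ± 3.55) overlapped in WT too, so their order rests on the length chosen, and *Lpl* stood above *Abcg1* without overlap (0.630 ± 0.161 and 0.357 ± 0.0657). In MLX KO, *Apoc1* passed *Scarb1*, with 66.3 ± 9.91 against 18.9 ± 0.834 CPM per kb, and came near *Apoe* at 78.5 ± 13.8. *Apod* came level with *Abcg1* and *Lpl* at 0.456, 0.446 and 0.394 CPM per kb, but with the longest transcript the values were 0.566, 0.558 and 1.00 CPM per kb, with *Lpl* the highest.

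Summed over the 10 genes, the level per kb was 64.0 to 71.9 in WT and 162 to 215 in MLX KO. *Apoe* made up 44.7% ± 3.99 of that sum in WT and 41.4% ± 2.02 in MLX KO (SD, n = 3). The part of *Apoc1* went from 17.2% ± 1.60 to 35.1% ± 1.13, and that of *Scarb1* from 23.9% ± 0.924 to 10.1% ± 0.968. With the longest transcript *Scarb1* held 37.9% ± 1.30 in WT and 17.9% ± 1.63 in MLX KO, *Apoc1* 13.9% ± 1.41 and 31.8% ± 1.11, and *Apoe* 39.1% ± 3.32 and 40.8% ± 2.12. By either length the parts of *Apoc1* and *Scarb1* did not overlap between genotypes, and that of *Apoe* did.

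**Figure D3:**
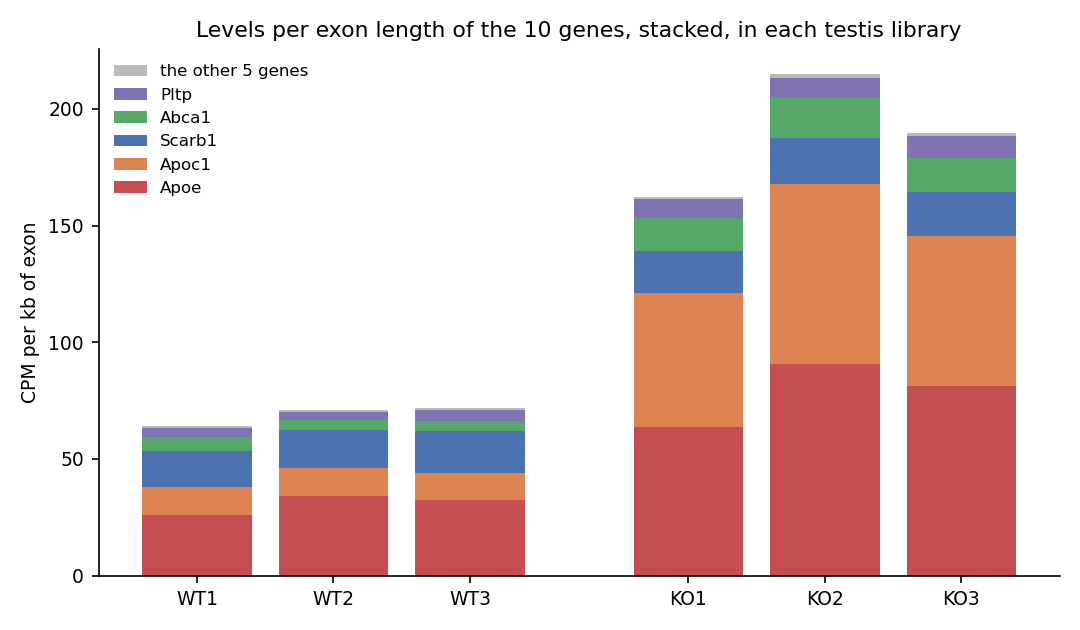
Levels of the 10 genes in CPM per kb of exon, stacked, in each of the 6 testis libraries. The 3 WT bars end between 64.0 and 71.9 and the 3 MLX KO bars between 162 and 215, with most of the added height from *Apoe* and *Apoc1*.

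Among 14 other apolipoproteins, 4 were tested, of which 1 was higher, 2 were lower and 1, *Saa1*, was not called (log2 fold change 0.22). Over all genes tested, 24.8% were higher and 20.6% lower. The median log2 fold change of the 4 was -0.014. *Clu*, or apolipoprotein J, a chaperone that Sertoli cells secrete in quantity, had the highest CPM at 737 ± 24.6 CPM in WT and 1267 ± 142 CPM in MLX KO (log2 fold change 0.78, adjusted p = 2.51e-05). *Mttp*, listed with them but no apolipoprotein, encodes the protein that loads lipid onto apolipoprotein B. It fell by 0.55 on the log2 scale (adjusted p = 8.09e-05) and *Apoh* fell by 0.25 (adjusted p = 0.0139), though the call of *Apoh* was lost when scaling by library size alone (0.196), in DESeq2 with the replicate block (0.0611), and without WT3 (0.0572), KO2 (0.0550) or KO3 (0.0575). *Apoa2*, a minor HDL protein, was counted 51, 27 and 10 times in WT libraries against 11, 11 and 6 times in MLX KO libraries, and its lower value (log2 fold change -1.73, adjusted p = 0.0169) did not hold without WT1 (0.0947), without KO3 (0.0642) or without replicate 1 of both genotypes (0.0920).

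Of 9 tested genes among receptors, and proteins acting on receptors, that take up particles bearing apolipoprotein E, 6 were higher and 0 lower. Over all genes tested the shares were 24.8% and 20.6%. The list had a median log2 fold change of 0.48. *Lsr*, the lipolysis-stimulated receptor, rose from 21.3 ± 2.35 to 50.7 ± 3.88 CPM (log2 fold change 1.25, adjusted p = 4.08e-06). *Lrp1*, which clears remnants, rose by 0.86, its chaperone *Lrpap1* by 0.48 and *Lrp8*, a receptor of apolipoprotein E and reelin, by 0.33 (adjusted p = 0.000435, 2.35e-05 and 0.000853).

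Of the other genes of sterol efflux and HDL, 6 of 13 were higher and 1 lower, beside 24.8% and 20.6% of all genes tested. Their median log2 fold change was 0.52. *Cyp27a1*, which makes 27-hydroxycholesterol, rose by 1.04, *Cd36*, a scavenger receptor, by 1.13, and *Npc2*, which hands cholesterol out of the lysosome, by 0.52 (adjusted p = 0.000416, 0.000254 and 4.94e-05). *Pdzk1*, the adaptor that keeps SR-BI at the membrane in liver, fell by 0.52, from 341 ± 6.32 to 237 ± 18.6 CPM (adjusted p = 6.53e-05).

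Of 10 genes of LXR, RXR, FXR, their cofactors and targets, 3 were higher and 1 lower, beside 24.8% and 20.6% of all genes tested. Their median log2 fold change was 0.05. The LXR genes themselves were not called: *Nr1h2* was at 46.5 ± 4.46 CPM in WT and 45.9 ± 3.08 CPM in MLX KO, and *Nr1h3* at 15.7 ± 0.347 and 14.3 ± 0.913 CPM. Both were looked up after their values had been seen. *Srebf1*, a lipogenic factor, rose by 0.55 (adjusted p = 0.00143) and *Rxra* by 0.36 (adjusted p = 0.00229), while *Lpcat3*, a phospholipid remodelling enzyme, fell by 0.29 (adjusted p = 0.00212). *Nr1h4*, the bile acid receptor FXR, was counted 5, 2 and 1 times in WT libraries against 23, 34 and 23 times in MLX KO libraries (log2 fold change 3.17, adjusted p = 0.000304), and passed the filter through the MLX KO libraries alone.

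**Figure D4:**
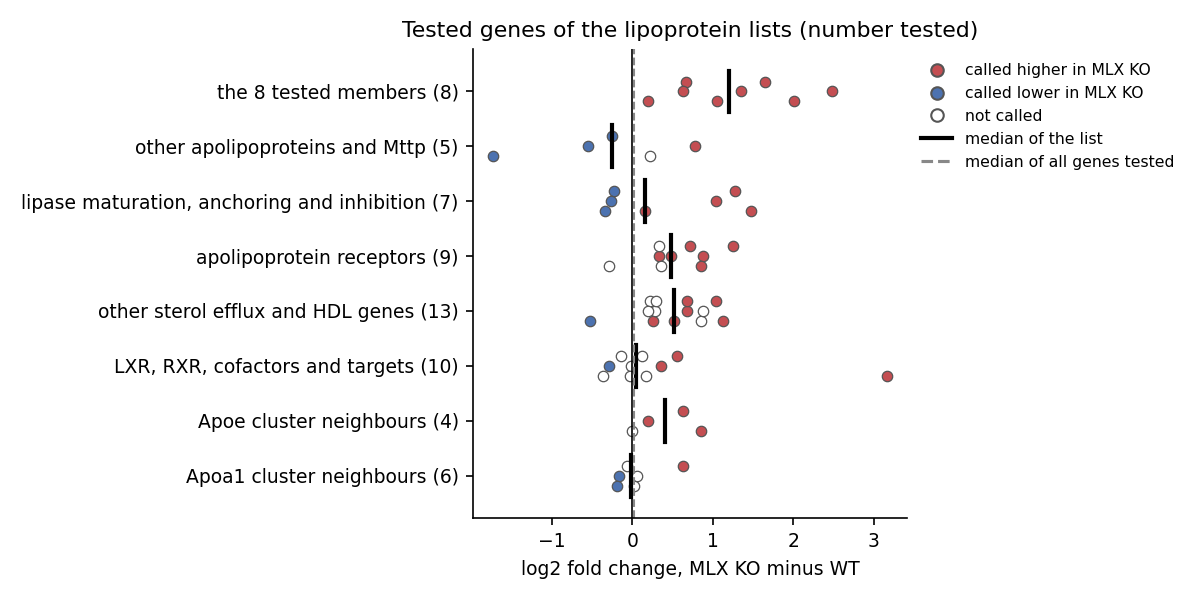
Log2 fold changes, MLX KO minus WT, of every tested gene of the lipoprotein lists, with the number tested in brackets, red and blue for genes called higher and lower, open for not called, a black bar at each list's median and a dashed line at the median of all genes tested. The 8 members have a median of 1.20, or 1.06 under the filter of 1 CPM in 3 libraries, which left *Apod* out. The other apolipoproteins, plotted together with *Mttp*, have one of -0.25, or -0.014 without it.

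Sertoli and Leydig markers, and most macrophage markers, were higher in the same libraries, and late germ cell markers were lower. Over all genes tested, 24.8% were higher and 20.6% lower. All 13 Sertoli markers were higher, with a summed level of 529 to 545 CPM in WT and 753 to 880 CPM in MLX KO and *Amhr2* the highest of them. All 9 Leydig markers were higher, from 901 to 924 CPM in WT to 1909 to 2527 CPM in MLX KO, led by *Insl3*. Of 11 tested macrophage markers 10 were higher and *Aif1*, the highest in CPM, was lower, and the sum was 476 to 488 CPM in WT and 516 to 564 CPM in MLX KO. Their medians on the log2 scale were 0.65, 1.07 and 1.28, beside 1.20 for the 8 lipoprotein genes. With the filter of 1 CPM in 3 libraries, which left *Apod* out, the lipoprotein median was 1.06. None of the markers of these 3 lists that have a row was at or under 3 counts in every library.

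For other cells of the tissue the lists were mixed, beside 24.8% higher and 20.6% lower over all genes tested. Of the endothelial markers 2 of 7 were higher, or 4 when scaling by library size alone (sum 21.4 to 25.5 and 35.9 to 39.3 CPM, *Cdh5* highest), and of the peritubular myoid markers 4 of 6 were higher and *Actg2*, the highest in CPM, was lower (310 to 369 and 309 to 325 CPM). Of 5 red blood cell genes, only *Alas2* was tested, and it was not called, while *Hba-a2* was at or under the floor. In the epididymis list *Lcn5*, *Adam7*, *Cst11*, *Bsph1* and *Rnase9* were at or under 3 counts in every library, and *Adam28* was the highest.

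The germ cell lists are set beside 24.8% higher and 20.6% lower over all genes tested. In these lists, spermatogonial markers were mixed (2 higher, 1 lower of 10, *Uchl1* highest, and 1 call in all in DESeq2 with the replicate block). Those of spermatocytes (8 of 11, *Piwil1* highest), round spermatids (10 of 10, *Tssk2* highest) and elongating spermatids (13 of 13, *Odf2* highest) were lower, with medians of -0.16, -0.26 and -0.53. Scaling by library size alone left 1 of the spermatocyte and 5 of the round spermatid calls, and 3, 2 and 4 spermatocyte calls were left without WT1, KO2 and KO3. In bulk tissue, a change in the number of cells of a type and a change in RNA per cell cannot be told apart, and the part of these markers in the rise of *Apoe*, *Apoc1*, *Abca1* and the others was not tested.

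**Figure D5:**
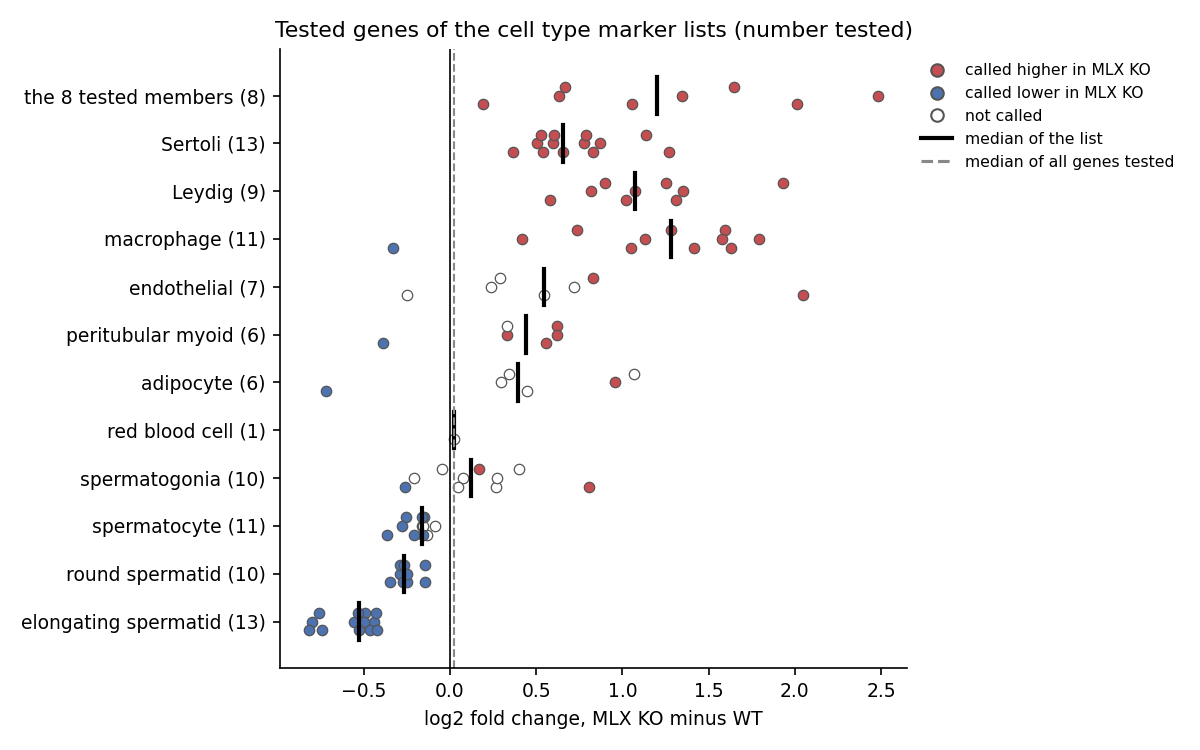
Log2 fold changes, MLX KO minus WT, of every tested gene of the cell type marker lists, with the 8 lipoprotein genes in the top row, in the same colours and with the same lines as for the lipoprotein lists. Sertoli, Leydig and macrophage medians lie at 0.65, 1.07 and 1.28 and the elongating spermatid median at -0.53.

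Within the MLX KO group the genes shared an order of libraries. KO1 was the lowest of the 3 for 7 of the 8 tested genes, all but *Apod*, and KO2 the highest for 6. Over the 3634 genes called higher, KO1 was lowest in 71.9% and KO2 highest in 50.1%, so many other genes had the same order. Without WT1 and KO1 together, all 8 genes were still called. Likeness across the 6 libraries was broad too: *Mpnd*, *Nfe2l1* and *Zeb2* followed *Apoe* most closely (Pearson's r of log2 CPM of at least 0.999), but 1551 of 9335 genes had an r above 0.9 with it. *C7*, *Txn1* and *Bhmt* were nearest to *Apoc1*, *Creg1*, *Atf6* and *Reep3* to *Abca1*, and *Tshz1*, *1810026J23Rik* and *Ppm1m* to *Scarb1*. For the genes of low level, they were *Sumo3*, *Anapc5* and *Rpl36a* for *Apod*, *Phlpp2*, *Wdr6* and *Amy1* for *Lpl*, and *Caskin1*, *Rsrp1* and *Rxrb* for *Abcg1*, all with an r of at least 0.986. The 6 points of each r fall into the 2 genotypes and share their libraries, so these are descriptions.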

How the data were processed

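The deposited RNA values are raw counts by gene symbol for each of the 6 libraries. The authors aligned paired-end reads to mm10 with TopHat to obtain them. The counting tool, gene annotation and strandedness are not given in the sources used here. The same table holds the authors' own comparison (mean signal, log2 fold change, standard error, test statistic, p and adjusted p), which was not used, and the ChIP-Seq samples were not analysed here. Of 17933 rows, 2 repeat another row and were used once.

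Genes were tested in edgeR 4.0.16 (R 4.3.3) with its default filter on low counts (minimum 10), TMM factors, a two-sided quasi-likelihood test on genotype alone and Benjamini-Hochberg adjustment over 14640 genes at a threshold of 0.05. CPM use TMM-adjusted library sizes; CPM per kb divide by the union of GENCODE exons, or by the longest transcript as an alternative. The other alternatives were DESeq2 1.42.0, its size factors, library size alone, upper-quartile factors, a filter of 1 CPM in 3 libraries or none, the replicate block, and leaving out each library. Leaving out replicate 1 of both genotypes was added after the data were seen. Group lists were read from the same fit with no test of their own. On counts simulated for this comparison over 14689 genes, edgeR called 50 of 50 genes changed 3-fold, 46 of 50 changed 2-fold and 21 of 50 changed 1.5-fold. The changed genes all had a mean of at least 50 counts, every gene had the same dispersion, and few genes were changed. These rates therefore do not cover genes of lower count such as *Apod*, or data in which many genes differ.

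The titles number the samples as paired replicates, and the study describes 3 pairs of age-matched littermates. No label says that a number marks a litter, so the block on replicate number is an alternative. No libraries were duplicates, since counts of a genotype differed beyond sampling noise with a chi-square of at least 2.73 per degree of freedom.

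The genes and lists were chosen with earlier results of these data known. Named were the 10 genes, the 4 called genes of lowest adjusted p in each pathway list, the tested neighbours of *Apoe* and *Apoa1*, the gene of highest CPM in each marker list and those at or under 3 counts in every library, and for each tested gene the 3 nearest by Pearson's r among genes of at least 10 CPM; those of *Pltp* are not reported here. *Nr1h2*, *Nr1h3*, *Ctsa*, *Gpihbp1*, *Lmf1*, *Lmf2*, *Sel1l*, *Plin1*, *Saa1*, *Alb* and *Mlx* were named outside that rule. Coordinates of genes, the gaps between them and the promoters are from RefSeq. Strands of genes and exon lengths are from GENCODE vM21, and both sources are on the mm10 assembly. Listed symbols with no row here were *Adgre1*, *Angptl8*, *Apoa5*, *Apoc3*, *Hba-a1*, *Hbb-bs*, *Hbb-bt*, *Lcn8*, *Meioc*, *Nectin2* and *Saa2*.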

Additional observations from a re-analysis of the deposited data

How the results depend on the processing

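The direction of all 8 tested genes was the same in every alternative run, and *Apoe*, *Apoc1*, *Pltp* and *Abca1* were called in 15 of 15 and *Apod* in 14 of 14, since a filter of 1 CPM in 3 libraries left *Apod* out. The number of members called was 5 in DESeq2, and 5 with the replicate block in DESeq2, where *Lpl*, *Abcg1* and *Scarb1* were lost, while the replicate block in edgeR left all 8. It was between 5 and 8 when leaving out 1 library, with 5 without WT1, WT2, KO2 or KO3. The neighbours of *Apoe* and *Apoa1* called went from 6 to between 2 and 6 when leaving out 1 library, with 2 without WT1 or KO2 and 3 without KO3. Over all genes, 6649 were called, 5130 to 7395 when leaving out 1 library, 5766 in DESeq2, 6743 with the replicate block in edgeR and 4579 with the replicate block in DESeq2. The 5343 of 6611 genes called higher under library size alone are 80.8% of the calls, against 54.7% with TMM. Uncalled neighbours changed sign around 0: *Clptm1* was at 0.13 with library size alone, 0.00059 with upper-quartile factors and -0.039 to 0.018 when leaving out 1 library, *Pafah1b2* at 0.074 with library size alone, *Bud13* at -0.0041 without replicate 1 of both genotypes, and *Pcsk7* at -0.0035 with DESeq2's size factors, -0.0079 in DESeq2, -0.0070 with the replicate block in DESeq2, -0.018 without replicate 1 of both genotypes and -0.030 to 0.071 when leaving out 1 library. The cause of these changes was not tested. With the longest transcript, *Lpl* and *Abcg1* changed places in the order of WT levels, *Apoe* and *Scarb1* overlapped in WT, and *Lpl* stood above *Apod* and *Abcg1* in the MLX KO order. *Apod*, *Lpl* and *Abcg1* were read fewer than 100 times in each library, and the part of depth in the lost calls was not tested. No label ties same-numbered libraries to 1 litter, and their deviations from the genotype means correlated by 0.145, 0.0363 and 0.121, so the numbers were not taken as a pairing, although each library correlated best with its own number (at most 0.0330 across numbers). With 3 libraries a genotype, the p-values of the main fit set the genotype difference against the spread within genotypes. That spread came from these few males and was moderated over all genes tested.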
